A study of Mus musculus with 18 samples.

Results

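The 43 genes described here encode proteins of the lysosome: 15 hydrolases, 4 activators or other soluble proteins, 9 membrane proteins, and 15 parts of the vacuolar proton pump (5 of its membrane sector V0, 8 of its catalytic sector V1 and 2 accessory subunits). They were chosen by gene symbol from a list of such genes without the cathepsins, and all 43 were found among the 23337 symbols of the count table. The libraries came from live CD45+ cells of digested vessels (aorta and carotid artery) of C57BL/6 mice of both sexes, aged 7 months and fed Western Diet for 5 months. Every mouse carried the genotype Apoe-/- Cx3cr1GFP Cd11cYFP, so the groups share the Apoe deletion, both reporters and the diet, and differ in the reporter signal of the sorted cells. The 6 GFP libraries hold cells with signal from the Cx3cr1 reporter only and the 5 YFP libraries cells with signal from the Cd11c reporter only, while the 4 DP libraries hold cells with both signals and the 3 DN libraries cells without either. The labels do not say that the replicates of a subset came from separate mice, whether mice were pooled, or which sex each library came from, so p-values measure the spread between these libraries only.

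Lysosomes are acidic compartments in which hydrolases break down proteins, lipids, glycans and nucleic acids taken up by the cell or delivered from inside it. The vacuolar proton pump acidifies them: its V1 sector hydrolyses ATP and drives proton transfer through the V0 sector in the membrane. Macrophages of atherosclerotic vessels take up lipoproteins and dead cells, which reach the lysosome for digestion. Many lysosomal genes share a promoter motif with the core CACGTG, which TFEB, TFE3 and related transcription factors bind.

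RefSeq promoters of the GRCm38.p6 build, from 250 bases before to 50 bases after the start, were matched for 38 of the 43 genes, all but Asah1, Atp6v1b2, Atp6v1c1, Atp6v1g1 and Atp6v1h. The 6 letters CACGTG, which read the same on both strands, were found in 11 of the 38 (28.95%), against 8.093% of the promoters of 27025 genes and 10.73% of those of the 11999 genes that were also tested here. The longer TCACGTGA, which contains the shorter word, was found in 6 of the 38 (15.79%). It was found in 1.125% of all promoters and in 1.867% of those of the genes also tested here. A match describes these letters and is neither a site shown to be used nor a cause. The 11 genes were Atp6v0b, Cln3, Mcoln1, Lamp1, Atp6v0d1, Glb1, Gaa, Lgmn, Atp6v1a, Atp6v0e and Gla, and Lamp1 held 4 copies. The 4 sequences shown, in capitals at CACGTG and 5′ to 3′ on the gene's strand, belong to members whose values in each library are given further on. They cover chr4:117887348-117887387 (minus strand), chr12:102439124-102439163 (minus strand), chr16:44139373-44139412 (minus strand) and chr17:26676377-26676416 (plus strand).
Atp6v0b: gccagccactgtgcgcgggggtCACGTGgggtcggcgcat
Lgmn: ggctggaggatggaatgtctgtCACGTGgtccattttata
Atp6v1a: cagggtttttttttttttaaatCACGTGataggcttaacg
Atp6v0e: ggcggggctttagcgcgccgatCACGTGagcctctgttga

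Total counts per library ranged from 289166 in YFP replicate 6 to 27742113 in YFP replicate 1. The transcripts of the reporters' own genes, Cx3cr1 and Itgax (which encodes CD11c), did not separate the subsets as labelled. All 6 GFP libraries had 107 to 191 CPM (counts relative to library size, scaled by the TMM method) of Itgax, and YFP replicates 3 and 4 had 60.7 and 60.0 CPM of Cx3cr1, against 80.85 to 165 CPM in GFP. The 5 libraries left out together as a check were judged farthest from their labels by these transcripts, with their values known and without a set limit. Cx3cr1 was at 9.43 and 0.427 CPM in the libraries labelled DP replicates 4 and 5, while those labelled DN replicates 3 and 6 had 142 and 134 CPM of Cx3cr1 and 332 and 297 CPM of Itgax. In the library labelled YFP replicate 6, Cx3cr1 was at 105 CPM and Itgax at 89.6 CPM. The macrophage marker list held 13 symbols, with Adgre1 and Emr1 for the same gene. Its 12 genes were all in the table, and all 12 were detected in every library. Their mean level, as log2(CPM + 1), was between 8.46 and 11.46 in 17 libraries and 5.91 in DN replicate 1, whose T cell and B cell marker levels of 7.50 and 7.14 were the highest of the 18 libraries. Bulk libraries cannot tell fewer cells of a type from less RNA per cell.

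All 42 members with enough counts for the test were detected in all 18 libraries. Compared per kilobase of transcript, over the median of 18 libraries, the most abundant were Psap with 1024 CPM per kilobase (prosaposin, the precursor of activators of sphingolipid breakdown), Grn with 984 (progranulin), Laptm5 with 851 (a lysosomal membrane protein of blood cells), Cd63 with 796 (a tetraspanin of late endosomes), Lgmn with 781 (legumain, an asparaginyl protease) and Lamp1 with 768 (a main glycoprotein of the lysosomal membrane). The median of the 42 was 139 CPM per kilobase. The lowest were Arsb with 11.0 (arylsulfatase B), Galc with 12.5 (galactosylceramidase) and Ctns with 13.97 (the cystine exporter cystinosin). In the proton pump, Atp6v0b led the V0 sector with 415 CPM per kilobase, Atp6v1f the V1 sector with 215 and Atp6ap1 the accessory subunits with 341. The remaining member, Atp6v0c, which encodes the proteolipid of the rotating ring of V0, had 45 counts over all libraries together, at most 6 in any library, and was not tested. Its annotation in GENCODE vM21 (mm10) holds processed pseudogene copies, and the row of the copy Atp6v0c-ps2 held 0 counts. Whether reads that fit several copies were dropped in counting was not tested.

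**Figure D1:**
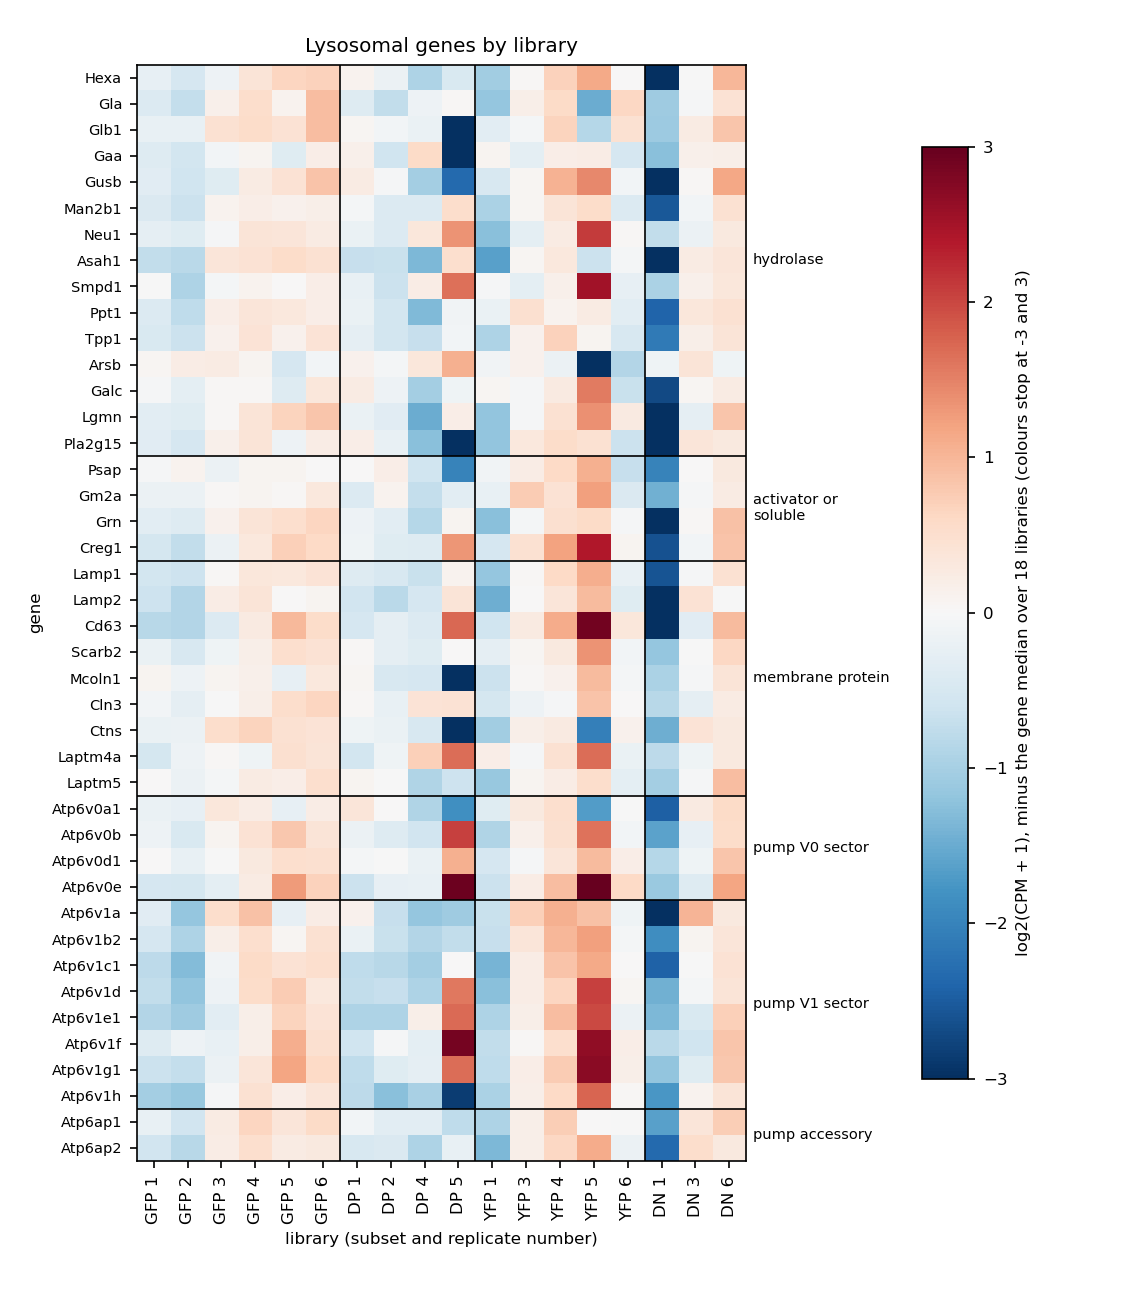
Level of the 42 tested lysosomal genes (rows, by role) in the 18 libraries (columns, by subset), as log2(CPM + 1) minus the gene's median over the libraries, with colours that stop at -3 and 3. DN replicate 1 is the lowest library for 32 of the 42 genes and YFP replicate 5 the highest for 25.

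No lysosomal gene passed the test between any pair of subsets. With edgeR's quasi-likelihood test at an adjusted p under 0.05 over 17143 genes, 0 of the 42 members were called in each of the 6 comparisons and 0 in the test of any difference among the 4 subsets, where 57 genes (0.332%) were called. The smallest adjusted p of a member in that joint test was 0.643, for Atp6v1h. DESeq2 also called 0 members in each comparison. The standard errors of the members' log2 fold changes were between 0.41 and 0.94 over the 6 comparisons, with a median of 0.59, so the lack of a call does not show that levels were alike. The 6 comparisons share libraries, so their values are set side by side and are not independent.

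Fibroblast and dendritic cell markers, like most other marker lists, had positive median fold changes in YFP and DP versus GFP, but few were called. All 10 fibroblast markers had higher fitted levels in YFP than in GFP (median log2 fold change 2.76, 0 called). They were also higher in DP than in GFP (median 3.15, 2 called), where 0.198% of all genes were called. Their summed level was 247 to 1093 CPM in the GFP libraries, 1292 to 12090 CPM in DP, 881 to 11170 CPM in YFP and 2272 to 4477 CPM in DN. All 8 dendritic cell markers had positive fold changes in YFP versus GFP (median 1.35) and in DP versus GFP (median 1.15), with 0 called in each, and their sums overlapped, at 36.5 to 346 CPM in GFP, 53.0 to 679 CPM in DP and 80.6 to 636 CPM in YFP. All 10 fibroblast markers were detected in every library, while the dendritic cell marker Clec9a was at 0 in GFP replicate 6 and YFP replicates 5 and 6, and Flt3 in YFP replicate 6. Medians in YFP and DP versus GFP were also positive for endothelial (1.91 and 1.39) and B cell markers (1.41 and 1.14). So were those of erythroid and platelet (3.35 and 1.745), smooth muscle (0.39 and 2.01) and neutrophil markers (0.55 and 5.66). Those of macrophage markers were 0.36 and -0.19, and those of T cell markers -0.74 and 0.47. None of these markers was called in either comparison. The part of these cell types in the members' fold changes was not tested.

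In YFP versus GFP cells, 31 of the 42 members had positive log2 fold changes, with a median of 0.23 against 0.04 over all genes tested, of which 0% were called. All 8 members of the V1 sector were among the 31, with a median of 0.67 and values from 0.35 to 0.89, while the 15 hydrolases split into 10 positive and 5 negative with a median of 0.06. The highest fold changes were those of Atp6v0e, a small V0 subunit (1.51 ± 0.73, SE, edgeR adjusted p = 0.706), Cd63 (1.24 ± 0.66, adjusted p = 0.772) and Smpd1, acid sphingomyelinase (1.03 ± 0.57, adjusted p = 0.790). The lowest were those of Ctns (-0.61 ± 0.69), Arsb (-0.54 ± 0.58) and Asah1, acid ceramidase (-0.40 ± 0.54), each with an adjusted p of 0.977. Atp6v0e was the only member with an unadjusted p under 0.05. No member had all YFP libraries above all GFP libraries or all below them, which 0.251% and 0.583% of all genes had. The median rested on single libraries and on the method. Without YFP replicate 5 it was -0.02, with 19 of 42 positive, against 0.02 over all genes, and without GFP replicate 2 it was 0.12 against 0.25, whereas without YFP replicate 1 it was 0.67 against -0.10. With limma's voom and sample weights it was 0.03 against 0.08, with the replicate block 0.05 against 0.07, and within replicate numbers 1 and 2 it was -0.17 against 0.01, so that it did not exceed that of all genes in these fits. Without the 5 libraries farthest from their labels it was 0.32 against -0.10.

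In DP versus GFP cells, 28 of the 42 members had negative log2 fold changes and 14 positive ones, with a median of -0.39 against 0.20 over all genes. There 34 genes (0.198%) were called, all of them higher in DP, and none was a member. The highest values were those of Atp6v1f, a V1 subunit of the central stalk (1.03 ± 0.67, adjusted p = 0.993), Atp6v0e (1.02 ± 0.76) and Laptm4a, a lysosomal membrane protein (0.63 ± 0.49), the last pair with an adjusted p of 1. The lowest were those of Atp6v1h, the V1 subunit H (-1.23 ± 0.58, adjusted p = 0.696), Ctns (-1.01 ± 0.75) and Glb1, a beta-galactosidase (-0.86 ± 0.68), both with an adjusted p of 1. Without DP replicate 5 the values of Atp6v1f and Atp6v0e turned to -0.31 and -0.42. With limma's voom and sample weights, 3 members were called, Atp6v1h (-1.11 ± 0.32, adjusted p = 0.0206), Asah1 (-0.99 ± 0.35, adjusted p = 0.0474) and Gla, alpha-galactosidase (-0.82 ± 0.28, adjusted p = 0.0451), where that method called 20.1% of all genes. The sign of the members' median was not stable: in 9 of the 18 fits without 1 library it was positive, between 0.03 and 0.10. Without GFP replicate 3, 4, 5 or 6 it was 0.06, 0.08, 0.05 and 0.10, with 23, 27, 24 and 25 of 42 members positive. The median of all genes rose in these fits as well, to 0.41, 0.39, 0.38 and 0.36. The other 5 fits left out YFP replicate 1, 3, 4 or 5 or DN replicate 3. These libraries are in neither subset and enter through the scaling and the shared spread. There the median of all genes rose to 0.48 or 0.50. Set against all genes, the members' median was lower in each of the 18 fits, by differences of -0.79 to -0.27 log2 units, and was 0.18 higher within replicate numbers 1 and 2. Without the 5 libraries farthest from their labels it was -0.41 against 0.14. No member's DP and GFP libraries were apart, against 0.548% of all genes above and 0.77% below.

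In YFP versus DP cells, 36 of the 42 members had positive log2 fold changes, with a median of 0.50 against -0.09 over all genes, of which 0% were called. The highest were 3 V1 subunits, Atp6v1h (1.89 ± 0.61, edgeR adjusted p = 0.481), Atp6v1b2, a subunit of the ATP-binding head (1.13 ± 0.51, adjusted p = 0.689), and Atp6v1a, the catalytic subunit (1.11 ± 0.61, adjusted p = 0.839). Atp6v1h and Atp6v1b2 were the members with an unadjusted p under 0.05. The lowest were Arsb (-0.96 ± 0.64, adjusted p = 0.942), Atp6v1f (-0.21 ± 0.71) and Atp6v0b (-0.19 ± 0.59), the last pair with an adjusted p of 1. Without DP replicate 5, Atp6v1f and Atp6v0b turned to 1.54 and 0.94. Without YFP replicate 5 the median of the members was -0.16, against -0.31 over all genes. Within replicate numbers 1 and 2, which hold 1 YFP library, it was -0.38 against 0.06, and within numbers 3 to 6 it was 0.63 against 0.02. Without the 5 libraries farthest from their labels it was 0.61 against -0.24. No member had its YFP and DP libraries apart, against 0.367% of all genes above and 0.426% below.

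**Figure D2:**
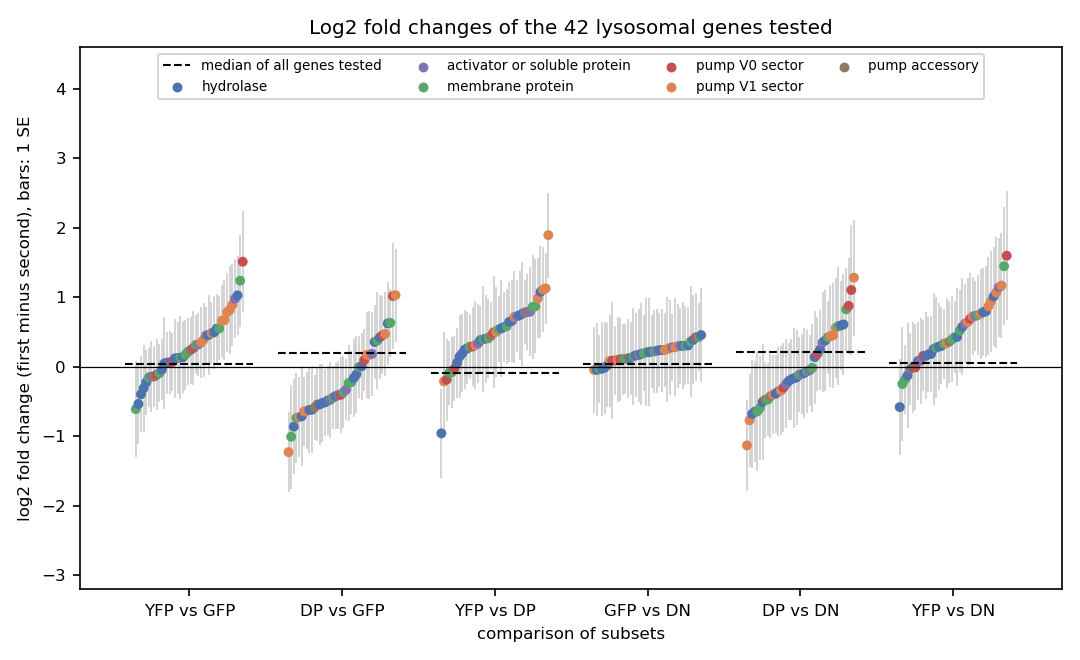
Log2 fold change of each of the 42 tested genes in the 6 comparisons (points, coloured by role, bars of 1 SE on each side), with the median of all 17143 genes tested as a dashed line. In YFP versus DP 36 of 42 points lie above 0, and no point passed the test in any comparison.

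Against DN cells, 37 of 42 members were positive in GFP (median 0.21, all genes 0.04), 16 in DP (median -0.11, all genes 0.21, or 0.11 and 0.32 with the size factors of DESeq2) and 35 in YFP (median 0.41, all genes 0.06), with 0% of all genes called in each comparison. No member had an unadjusted p under 0.05 and every adjusted p was 1. In GFP versus DN the log2 fold changes ran from -0.05 ± 0.62 for Atp6v1a to 0.46 ± 0.68 for Lgmn, with Cln3 (a lysosomal membrane protein) at 0.43 ± 0.49, Atp6v0b at 0.42 ± 0.64, Arsb at -0.05 ± 0.67 and Laptm5 at -0.03 ± 0.49. In DP versus DN the highest were Atp6v1f (1.28 ± 0.83), Atp6v0e (1.10 ± 0.94) and Atp6v0b (0.88 ± 0.69), and the lowest Atp6v1h (-1.13 ± 0.65), Atp6v1a (-0.77 ± 0.67) and Glb1 (-0.68 ± 0.78). In YFP versus DN the highest were Atp6v0e (1.60 ± 0.93), Cd63 (1.45 ± 0.85) and Atp6v1g1 (1.17 ± 0.75), a V1 stalk subunit, and the lowest Arsb (-0.58 ± 0.69), Ctns (-0.25 ± 0.82) and Laptm5 (-0.19 ± 0.50).

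DN replicate 1 set the direction against GFP: without it 1 of 42 members was positive in GFP versus DN, with a median of -0.26 against 0.09 over all genes. Without it the medians were -0.56 in DP versus DN (all genes 0.52) and -0.01 in YFP versus DN (all genes 0.44). In YFP versus DN this was the only fit without 1 library where the members' median fell below that of all genes. In DP versus DN the median also turned the other way, to 0.43 without DN replicate 3 (36 of 42 positive, all genes 0.30) and 0.32 without DN replicate 6 (32 positive, all genes 0.13). It was above 0 in 10 of the 18 fits without 1 library. Set against all genes, it was lower in 16 of the 18, all but the fits without DN replicate 3 or DN replicate 6. With the 4 libraries labelled DP replicates 4 and 5 and DN replicates 3 and 6 left out, DN replicate 1 alone stood for DN. The medians were then 1.30 in GFP, 1.08 in DP and 2.0 in YFP (all genes -0.71, -0.23 and -0.38). Within replicate numbers 1 and 2, where DN replicate 1 is again alone and its spread is assumed to be that of the other subsets, edgeR called 18 members higher in GFP (12.5% of all genes called), 21 in DP (14.1%) and 15 in YFP (9.84%). YFP replicate 1 is the only YFP library of that fit, so YFP versus DN there compares 1 library with 1 library. None of these counts can tell a difference between subsets from that of a single library. Within numbers 3 to 6, which leave DN replicate 1 out, the medians were -0.05, -0.54 and 0.16 (all genes -0.01, 0.2 and 0.05). No member was called there. No member had its libraries apart from those of DN, against 0.636% of all genes above and 0.846% below in GFP, 0.455% and 0.98% in DP, and 0.227% and 0.723% in YFP.

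Among the hydrolases, Lgmn (chr12:102394084-102439813 in mm10) was between 1210 and 2758 CPM in the 6 GFP libraries, with a median of 1812. It was at 1352, 1236, 551 and 1770 CPM in DP replicates 1, 2, 4 and 5, at 682, 1528, 2139, 4027 and 1872 CPM in YFP replicates 1, 3, 4, 5 and 6, and at 88.1, 1281 and 2762 CPM in DN replicates 1, 3 and 6. DN replicate 1 was below every other library, YFP replicate 5 above every other, and all 4 subsets overlapped.

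Arsb (chr13:93771630-93943016) was between 31.2 and 53.2 CPM in GFP, with a median of 46.7 CPM. It was at 48.7, 42.95, 56.8 and 94.3 CPM in DP replicates 1, 2, 4 and 5, at 41.1, 49.1, 39.6, 1.20 and 23.9 CPM in YFP replicates 1, 3, 4, 5 and 6, and at 40.5, 58.8 and 40.9 CPM in DN replicates 1, 3 and 6. It was lowest in the library in which most other members were highest, YFP replicate 5, and the subsets overlapped. Exons of 2 long noncoding genes on the opposite strand cover 32.27% (Gm26527) and 7.669% (Gm47210) of its exon bases, and as the strand setting of the counting is not given in the sources used here, their reads cannot be told apart there.

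Of the activators, Psap (chr10:60277627-60302597) was between 2395 and 2916 CPM in GFP, with a median of 2809 CPM. It was at 2721, 3111, 1784 and 683 CPM in DP replicates 1, 2, 4 and 5, at 2542, 3168, 4089, 5671 and 1684 CPM in YFP replicates 1, 3, 4, 5 and 6, and at 674, 2721 and 3311 CPM in DN replicates 1, 3 and 6. The GFP libraries lay close together, while DP replicate 5 and DN replicate 1 were low and YFP replicate 5 high.

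Of the membrane proteins, Laptm5 (chr4:130913125-130936141) was between 1953 and 3128 CPM in GFP, with a median of 2380 CPM. It was at 2328, 2209, 1183 and 1436 CPM in DP replicates 1, 2, 4 and 5, at 1013, 2337, 2583, 3182 and 1812 CPM in YFP replicates 1, 3, 4, 5 and 6, and at 1093, 2159 and 4200 CPM in DN replicates 1, 3 and 6. Its highest and lowest libraries, DN replicate 6 and YFP replicate 1, differed from those of most other members.

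Ctns (chr11:73183596-73199042) was between 33.0 and 60.7 CPM in GFP, with a median of 51.3 CPM. It was at 34.3, 32.7, 26.9 and 0.320 CPM in DP replicates 1, 2, 4 and 5, at 17.8, 42.9, 45.7, 8.38 and 41.8 CPM in YFP replicates 1, 3, 4, 5 and 6, and at 13.1, 51.0 and 46.5 CPM in DN replicates 1, 3 and 6. The DP libraries overlapped GFP replicates 1 and 2 and lay below the other GFP libraries, with DP replicate 5 far below the rest.

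In the V0 sector, Atp6v0b (chr4:117884326-117887333) was between 301 and 722 CPM in GFP, with a median of 488 CPM. It was at 364, 319, 278 and 1714 CPM in DP replicates 1, 2, 4 and 5, at 220, 460, 577, 1287 and 394 CPM in YFP replicates 1, 3, 4, 5 and 6, and at 135, 350 and 609 CPM in DN replicates 1, 3 and 6. DP replicate 5 and YFP replicate 5 stood above all other libraries, and the rest of each subset overlapped. The antisense gene Gm12841 covers 11.85% of its exon bases.

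Atp6v0e (chr17:26663231-26699647) was between 138 and 483 CPM in GFP, with a median of 200 CPM. It was at 126, 167, 169 and 1540 CPM in DP replicates 1, 2, 4 and 5, at 127, 233, 375, 2484 and 302 CPM in YFP replicates 1, 3, 4, 5 and 6, and at 91.7, 152 and 455 CPM in DN replicates 1, 3 and 6. Its positive fold changes in DP and its largest values in YFP thus came with a single library in each subset, and all 4 subsets overlapped. Without YFP replicate 5 its log2 fold change in YFP versus GFP fell to 0.13.

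In the V1 sector, Atp6v1a (chr16:44085402-44139705) was between 238 and 983 CPM in GFP, with a median of 536 CPM. It was at 588, 329, 238 and 255 CPM in DP replicates 1, 2, 4 and 5, at 337, 878, 1114, 990 and 487 CPM in YFP replicates 1, 3, 4, 5 and 6, and at 64.9, 1089 and 651 CPM in DN replicates 1, 3 and 6. Of the 5 YFP libraries, 3 were above every DP library, and the subsets overlapped.

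Atp6v1h (chr1:5070018-5162529) was between 72.2 and 220 CPM in GFP, with a median of 169 CPM. It was at 91.8, 66.0, 80.7 and 21.1 CPM in DP replicates 1, 2, 4 and 5, at 81.8, 180, 243, 535 and 164 CPM in YFP replicates 1, 3, 4, 5 and 6, and at 46.9, 171 and 209 CPM in DN replicates 1, 3 and 6. The DP libraries were all at 91.8 CPM or less, and 4 of 5 YFP libraries were above all of them, with YFP replicate 1 inside their range. The DP libraries also overlapped GFP replicates 1 and 2, at 78.1 and 72.2 CPM.

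Atp6v1f (chr6:29467718-29470512) was between 115 and 324 CPM in GFP, with a median of 153 CPM. It was at 99.7, 146, 122 and 1109 CPM in DP replicates 1, 2, 4 and 5, at 90.6, 156, 214, 958 and 173 CPM in YFP replicates 1, 3, 4, 5 and 6, and at 85.6, 99.8 and 271 CPM in DN replicates 1, 3 and 6. The libraries numbered 5 were the highest of GFP, DP and YFP, and the subsets overlapped.

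The accessory subunit Atp6ap1 (chrX:74297097-74304721), which helps assemble the pump, was between 500 and 1170 CPM in GFP, with a median of 922 CPM. It was at 702, 599, 598 and 442 CPM in DP replicates 1, 2, 4 and 5, at 392.4, 841, 1252, 748 and 746 CPM in YFP replicates 1, 3, 4, 5 and 6, and at 240, 955 and 1249 CPM in DN replicates 1, 3 and 6. The DP libraries overlapped GFP replicates 1 and 2 and lay below the other GFP libraries, and YFP replicate 5 did not stand out.

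DN replicate 1 was the lowest of the 18 libraries for 32 of 42 members, while it was the lowest for 6.457% of all genes. All 42 members were lower in it than the median of the other 17 libraries, by a median log2 difference of -1.74 that ran from -4.15 for Lgmn to -0.19 for Arsb, whereas the median of all genes was 0.23. The 43 genes together took 0.892% of its counts, against 1.41% to 3.02% in the other libraries. The summed level of the 12 macrophage markers was 2040 CPM there, against 10570 to 132600 CPM in the other libraries, and that of the 9 T cell markers was 1910 CPM against 14.9 to 460 CPM. The part of these other cell types in the low lysosomal level was not tested.

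**Figure D3:**
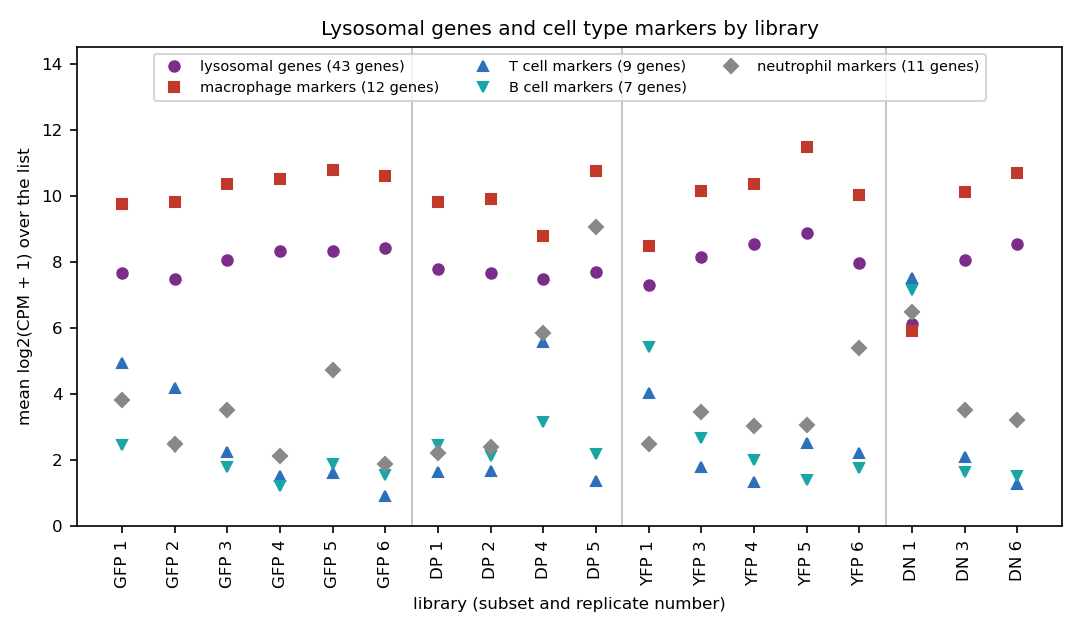
Mean log2(CPM + 1) of the 43 lysosomal genes and of the macrophage, T cell, B cell and neutrophil marker lists in each of the 18 libraries (1 symbol per list and library, vertical lines between subsets). The lysosomal genes were at 6.11 in DN replicate 1 and between 7.28 and 8.88 in the other libraries, and the neutrophil markers were highest in DP replicate 5, at 9.05.

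YFP replicate 5 was the highest library for 25 of 42 members and for 18.52% of all genes. Its summed level of the 12 macrophage markers, 132600 CPM, was also the highest of the 18 libraries, against 10570 to 48760 CPM in the other YFP libraries, and the part of this in its lysosomal levels was not tested. Against the median of the other YFP libraries, 35 of 42 members were higher there, by a median of 1.07 on the log2 scale (all genes -0.31), from -4.24 for Arsb to 3.21 for Atp6v0e. In DP replicate 5, 28 of 42 were higher than the rest of DP, from -5.55 for Pla2g15, a lysosomal phospholipase, to 3.20 for Atp6v0e. Pla2g15 was at 3.84 CPM there and between 111 and 306 CPM in the other DP libraries, Mcoln1 (the calcium channel mucolipin-1) at 0.960 CPM against 65.7 to 98.3 CPM, and Glb1 at 0.747 CPM against 50.9 to 60.4 CPM. Neutrophil markers were also high in DP replicate 5, at 39240 CPM summed against 138 to 2727 CPM in the other DP libraries, and their part in these values was not tested.

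Transcript length moved with these differences. The lengths and limits were set beside the values after the data were seen. All 6 members with transcripts of up to 1500 bases (Cd63, Atp6v0b, Atp6v0e, Atp6v1e1, Atp6v1f and Atp6v1g1) were higher in YFP replicate 5 and in DP replicate 5 than in the rest of the subset, by median log2 differences of 2.52 and 2.52. The 19 members of over 2500 bases had medians of 0.62 and 0.03. Of the 755 genes of up to 1500 bases with a median of at least 20 CPM, 705 and 701 were higher too, by medians of 2.43 and 2.58, and the 3490 genes of over 2500 bases had medians of -0.75 and -1.11. The pattern was not limited to the libraries numbered 5. Short and long members had medians of 1.30 and 0.00 in GFP replicate 5 and of 1.54 and 0.96 in DN replicate 6. In GFP replicate 3 and DN replicate 3 it ran the other way, with -0.52 and 0.04, and -0.49 and 0.52. Over the genes of at least 20 CPM, Spearman's correlation of the difference with length ran from -0.718 in GFP replicate 5 to 0.603 in DN replicate 3. It was -0.474 in DP replicate 5 and -0.452 in YFP replicate 5. The part of length in the members' values was not tested.

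**Figure D4:**
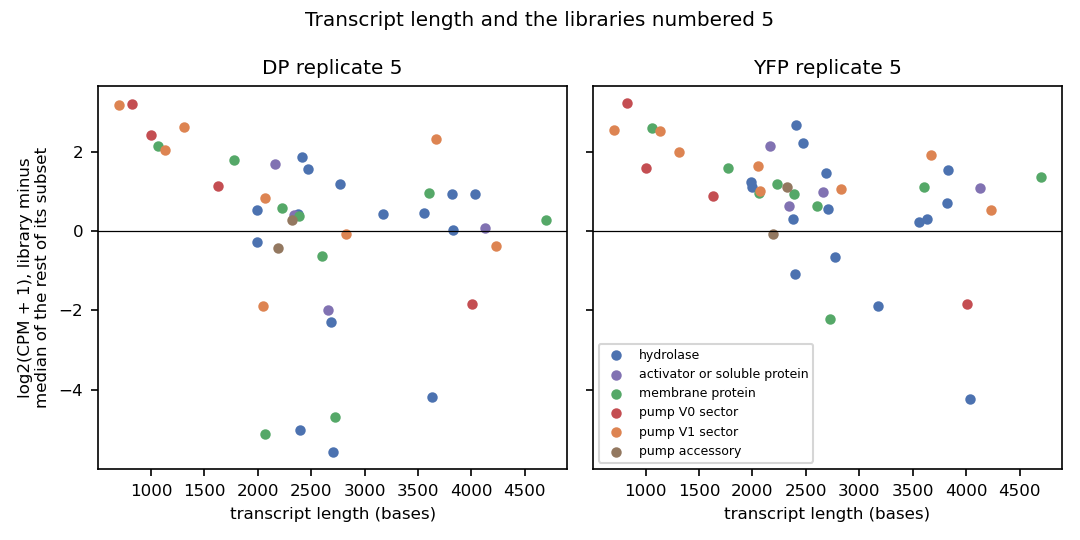
Log2(CPM + 1) of each of the 42 genes in DP replicate 5 (left) and YFP replicate 5 (right) minus the median of the rest of the subset, against transcript length in bases, coloured by role. The 6 genes of up to 1500 bases all lie above 0 in both libraries.

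Within GFP, the members differed between replicate numbers. Of the 42 members, 32 (76.19%) had all 4 libraries numbered 3 to 6 above both libraries numbered 1 and 2, and 0 had them all below. Over all genes tested 18.36% were above and 34.85% below. The mean log2 level over the members was 7.64 and 7.46 in GFP replicates 1 and 2 and between 8.04 and 8.42 in replicates 3 to 6. The number of genes detected was 20677 and 21448 in the first pair and between 14731 and 15730 in the others, and the T cell markers were at 4.92 and 4.16 against 0.89 to 2.24. The labels do not say what the numbers stand for, and the part of these differences in the members' values was not tested.

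The other pump isoforms and lysosomal genes gave the same count of calls, 0 of 8 tested isoforms of 10 listed, 0 of 36 other lysosomal genes and 0 of 4 transcription factors in each pair of subsets, at the same background as above. Atp6v0d2, the isoform of subunit d known from osteoclasts and macrophages, had the smallest adjusted p among the isoforms. It was between 32.3 and 131 CPM in GFP, at 98.7, 85.3, 38.0 and 60.1 CPM in DP replicates 1, 2, 4 and 5, at 222, 294, 727, 1310 and 111 CPM in YFP replicates 1, 3, 4, 5 and 6, and at 3.08, 111 and 240 CPM in DN replicates 1, 3 and 6. Of the 5 YFP libraries, 4 were above every GFP and DP library, while the library labelled YFP replicate 6 lay within the GFP range. The log2 fold change in YFP was 2.84 ± 0.72 over GFP (edgeR adjusted p = 0.174) and 2.92 ± 0.85 over DP (adjusted p = 0.398), and the adjusted p of any difference was 0.0796. Per kilobase, Atp6v0d2 stood at 0.377 to 2.63 times its ubiquitous counterpart Atp6v0d1 in the YFP libraries, 0.148 to 0.362 times in GFP, 0.111 to 0.401 times in DP and 0.0218 to 0.523 times in DN.

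Tcirg1, the a3 isoform of the large V0 subunit, was at 2.51 to 11.4 times Atp6v0a1 per kilobase over the 18 libraries, and its mean was 440, 344, 390 and 342 CPM in GFP, DP, YFP and DN. Of the 36 other lysosomal genes, 24 had positive fold changes in YFP versus GFP (median 0.18) and 28 in YFP versus DP (median 0.33). Cd68, a macrophage marker as well as a lysosomal glycoprotein, was among the most abundant of them per kilobase and averaged 1710, 1604, 2559 and 1373 CPM in GFP, DP, YFP and DN. Among the transcription factors, Tfe3 averaged 123, 77.8, 74.4 and 99.2 CPM and Tfeb 52.6, 32.6, 30.2 and 46.7 CPM in the same order. Both were lowest in the libraries numbered 5 of DP and YFP, at 18.03 and 38.8 CPM for Tfe3 and 0.747 and 6.18 CPM for Tfeb.

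**Figure D5:**
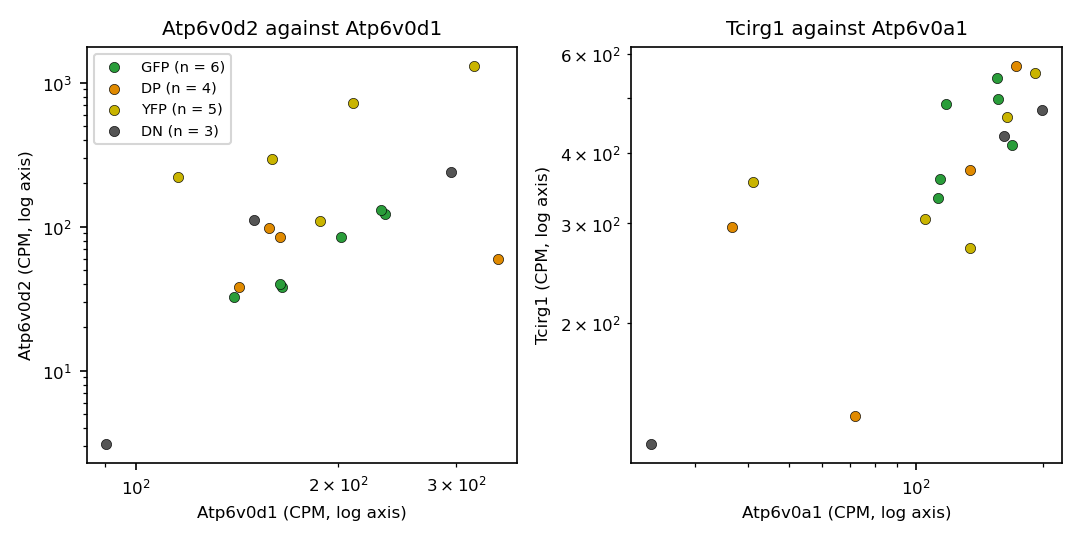
Atp6v0d2 against Atp6v0d1 (left) and Tcirg1 against Atp6v0a1 (right) in the 18 libraries, in CPM on log axes, 1 point per library coloured by subset. Of the 5 YFP libraries, 4 lie above every GFP and DP library for Atp6v0d2, between 222 and 1310 CPM.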

How the data were processed

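RNA of 4 sorted subsets of live CD45+ vessel cells was made into cDNA with a SMART-seq v4 kit and into libraries with a Nextera XT kit, per the labels' protocols. TopHat 1.4.1, SAMtools, HTSeq 0.7.1 and the build mm10 were used, per the submitters' processing notes. The annotation and strand setting of the counting are not given in the sources used here. The deposited values are raw whole-number counts, 1 per gene symbol and library, without molecular identifiers.

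All tests used edgeR 4.0.16 under R 4.3.3 (filterByExpr by subset, TMM scaling, robust quasi-likelihood fit with 1 mean per subset over all 18 libraries, common dispersion 0.890), with Benjamini-Hochberg adjustment over 17143 genes and a threshold of 0.05. Standard errors were derived from the log2 fold change and its F statistic. The test was checked on counts simulated for DP versus GFP, with every gene at the common dispersion of these libraries. It missed most of the changes put in there, other than the largest. Genes differ in spread, so this need not hold for the members. Every pair of libraries of a subset differed by more than counting noise (smallest chi-square for each degree of freedom 16.4). Coordinates are from GENCODE vM21 (mm10). Transcript length is that of 1 transcript per gene. Alternatives used DESeq2 1.42.0, limma 3.58.1, other scaling, no filter on low counts, a replicate block and fewer libraries.

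The members and lists were chosen with earlier results of these data known. Per comparison, the 3 members with the highest and the 3 with the lowest log2 fold change were named. Values by library are given for members named so in at least 3 comparisons and for the most abundant per kilobase of each role. Of the other pump isoforms and the transcription factors, the 2 most abundant genes per kilobase are named, and of the other lysosomal genes only Cd68. Genes named beyond this rule (Mcoln1, Pla2g15, the members called by limma, and the markers Clec9a and Flt3) were chosen after their values were seen.

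Whether replicate numbers pair the libraries was checked by the correlation of deviations from subset means. For GFP and DN, all 3 same-numbered pairs were above 0.1 (0.663, 0.530 and 0.626), but so were pairs of different numbers (up to 0.721), and the labels do not say what the numbers mark. For YFP and GFP the same-numbered values were 0.538, 0.425, 0.464, 0.293 and -0.00644 in numbers 1, 3, 4, 5 and 6. Pairs of different numbers reached 0.537 there. For DP and GFP they were 0.0646, 0.431, 0.236 and 0.267 in numbers 1, 2, 4 and 5, with different numbers up to 0.358. The same-numbered GFP library had the highest value for YFP replicates 1, 3, 4 and 5 and DP replicates 2 and 5. It did not for YFP replicate 6 and DP replicates 1 and 4. The main fit holds no term for the number.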

Additional observations from a re-analysis of the deposited data

Results flagged for a closer look

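A library far from the others of its subset was tested in 33 groups of the members given by library, and 5 values stood apart. The limit is meant to give about 1 in 20 groups for normally distributed values, but 27.0% of the groups of all genes tested passed it here. The members were also named for their highest or lowest fold changes, which such libraries can set, and the groups share libraries. The count is therefore no test. In DP replicate 5, Atp6v0b was at 1714 CPM, Atp6v0e at 1540 CPM and Atp6v1f at 1109 CPM. In YFP replicate 5, Atp6v0e was at 2484 CPM and Atp6v1f at 958 CPM. Over all 43 members, 21 of 129 groups held such a library, against 27.0% of the groups of all genes tested, which was YFP replicate 5 in 10, DP replicate 5 in 9, and GFP replicate 2 and YFP replicate 6 in 1 each. Over all genes tested, YFP replicate 5 was such a library for 18.6% and DP replicate 5 for 16.4%. The cause was not tested.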

How the results depend on the processing

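With alternatives, 0 members were called in each comparison except with limma's voom and sample weights (3 in DP versus GFP) and within replicate numbers 1 and 2 (18, 21 and 15 in GFP, DP and YFP versus DN, and 17 for any difference, where 18.1% of all genes were called). Counts of all genes called moved more. They were 9 and 62 in YFP and DP versus GFP with no filter on low counts, and 92 in DP versus GFP with DESeq2 size factors in edgeR. DESeq2 called 186 and 362 in YFP and DP versus GFP, 130 in YFP versus DP, and 30 and 12 in DP and YFP versus DN. Limma's voom called 462 and 3445 in YFP and DP versus GFP. Within numbers 1 and 2 the counts were 1438 in YFP versus GFP, 244 in DP versus GFP, 1496 in YFP versus DP, and 2296, 2584 and 1807 in GFP, DP and YFP versus DN. YFP and DN hold 1 library each within numbers 1 and 2. Of the counts there, only that of DP versus GFP does not rest on a single library, and the members' counts above do. Within numbers 3 to 6 the counts were 188 in DP versus GFP, 9 in YFP versus DP and 1 in DP versus DN. In DP versus GFP 0 genes were called with the replicate block, with only the subsets compared, and with the 4 DP and DN libraries farthest from their labels left out, with or without YFP replicate 6. Without all 5, 55 genes were called in YFP versus GFP and 1 in YFP versus DN. Leaving out each library in turn gave 0 to 11 genes in YFP versus GFP and 0 to 252 in DP versus GFP, with 252 called without YFP replicate 5 and 0 without DP replicate 4, without DP replicate 5, or without any of the GFP libraries.

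Moves of the members' median log2 fold change were set against 0.719, the pooled SD within subsets of the libraries' median member level on the log2 scale. That SD is a yardstick and not the spread of a median log2 fold change. Within numbers 1 and 2 the members' median moved by more, to -0.38 in YFP versus DP, 1.08 in GFP versus DN and 1.25 in DP versus DN. It moved also without the 4 libraries, to 1.30, 1.08 and 2.0 in GFP, DP and YFP versus DN, and without YFP replicate 6 as well, to 1.88, 1.41 and 2.46. With the replicate block the medians were 0.05, -0.12 and 0.22 in YFP versus GFP, DP versus GFP and YFP versus DP (all genes 0.07, 0.07 and 0.00), and 0.31, 0.15 and 0.36 in GFP, DP and YFP versus DN (all genes -0.01, 0.03 and 0.03), and 0 genes were called in each.

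Signs of named members, none of which passed the main test, turned as follows. With limma's voom the log2 fold change was -0.05 for Smpd1 in YFP versus GFP, -0.36, -0.49 and -0.23 for Atp6v1f, Atp6v0e and Laptm4a in DP versus GFP, 0.49 and 0.47 for Atp6v1f and Atp6v0b in YFP versus DP, 0.02 for Laptm5 in GFP versus DN, and -0.02, -0.33 and -0.10 for Atp6v1f, Atp6v0e and Atp6v0b in DP versus DN. Without the 4 libraries it was -0.26, -0.44 and -0.09 for Atp6v1f, Atp6v0e and Laptm4a in DP versus GFP, 1.5 and 0.81 for Atp6v1f and Atp6v0b in YFP versus DP, 2.60 and 0.61 for Atp6v1a and Laptm5 in GFP versus DN, 0.48, 2.55 and 0.83 for Atp6v1h, Atp6v1a and Glb1 in DP versus DN, and 0.75 and 0.67 for Ctns and Laptm5 in YFP versus DN. Without YFP replicate 6 as well, the same members were at -0.57, -0.77 and -0.39, at 1.54 and 0.91, at 3.19 and 1.17, at 0.76, 2.83 and 1.11, and at 1.15 and 1.08, and Arsb was at 0.18 in GFP versus DN. Within numbers 1 and 2 it was 0.14, 0.08 and 0.28 for Atp6v1h, Ctns and Glb1 in DP versus GFP, -0.18 and -0.35 for Atp6v1b2 and Atp6v1a in YFP versus DP, 2.15, 0.06 and 0.72 for Atp6v1a, Arsb and Laptm5 in GFP versus DN, 0.61, 2.69 and 0.96 for Atp6v1h, Atp6v1a and Glb1 in DP versus DN, and 0.40 for Ctns in YFP versus DN. With the replicate block it was 0.04 for Atp6v1f in YFP versus DP, 0.34, 0.16 and 0.09 for Atp6v1a, Arsb and Laptm5 in GFP versus DN, and 0.15 for Atp6v1a in DP versus DN. With DESeq2, and with its size factors in edgeR, it was 0.02 for Laptm5 in YFP versus DN.

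Leaving out each library in turn gave ranges across 0 of -0.31 to 1.92 and -0.42 to 1.99 for Atp6v1f and Atp6v0e in DP versus GFP, -1.86 to 1.54 and -1.28 to 0.94 for Atp6v1f and Atp6v0b in YFP versus DP, and -0.13 to 1.46, -0.0028 to 1.01, -0.60 to 0.74 and -0.42 to 0.58 for Lgmn, Atp6v0b, Atp6v1a and Laptm5 in GFP versus DN. In DP versus DN they were -0.13 to 1.99, -0.39 to 2.03 and -1.34 to 0.40 for Atp6v1f, Atp6v0e and Atp6v1a, and in YFP versus DN -0.69 to 0.08 and -0.55 to 0.43 for Ctns and Laptm5. Ranges without a single library also reached 1.24 for Laptm4a in DP versus GFP, -0.20 for Arsb in GFP versus DN, and -1.60 and -1.12 for Atp6v1h and Glb1 in DP versus DN. Without YFP replicate 6 and the other 4 libraries Lgmn was at 4.44 in GFP versus DN. The medians of the members ran from -0.43 to 0.10 in DP versus GFP, -0.02 to 0.67 in YFP versus GFP, -0.56 to 0.43 in DP versus DN and -0.01 to 0.96 in YFP versus DN. The causes were not tested. Libraries of 289166 to 27742113 counts and a common dispersion of 0.890 limit the precision.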
